A study of Rattus norvegicus with 44 samples.

Results

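The genes described here are 8 rat genes of the ATF4 and CHOP stress response, Atf4, Atf3, Ddit3, Ppp1r15a, Trib3, Nupr1, Asns and Casp4, measured in a hepatoma cell line exposed to nickel, chromium or cadmium. Their probe sets were those that the array annotation assigns to exactly 1 of these genes, which gave 10 of the 31042 probe sets of the array after its own controls were left out. Trib3 had 3 probe sets and the other genes 1 each, and no probe set was shared with another gene. The cells, H4-II-E-C3, are an established line from a rat liver tumor, and all flasks, controls included, received serum-free medium for the 24 h of exposure. NiCl2 was given at 40, 140 and 400 µM, Na2Cr2O7 at 0.275, 1 and 10 µM, and CdCl2 at 0.2 µM, 0.55 µM and 1.2 µM, and controls received no metal. Each of the 9 exposures had 4 biological replicates, and each replicate had 2 control arrays, for 36 exposed and 8 control arrays. The methods chose the concentrations of each metal by cell death, with the highest of each metal set for a like loss of viability. A value is the log2 of the RMA signal, so a difference of 1 is a doubling.

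The condition of each array rests on an ordering that differs from the labels. The sample titles were taken in series order, the 4 titles of repeated microarrays were moved to the end, and each title was given to the value column in the same place. With this order the condition means lay within 7.5e-06 of the condition averages published with the study for all 992 probe sets listed there, with a median difference of 2.95e-06. Conditions taken straight from the labels gave differences of 0.164 at the median and of up to 4.3. The published averages come from these same arrays, so the match is not independent evidence. Both ways gave the same condition to 22 of the 44 arrays, namely 16 exposed and 6 control arrays. These include 2 arrays of nickel 400 µM, 2 of chromium 10 µM and 1 of cadmium 1.2 µM, and the changes at the highest concentrations and the differences between metals are also described over these arrays alone. They are replicates 1 and 2 of nickel and chromium and replicate 1 of cadmium. Such values therefore restate part of the same replicates and are no separate check of the order. A shift in them cannot be told apart from a difference between replicates. With the labels as given, 0 of the 10 probe sets passed an adjusted p of 0.05 in limma at the highest concentration of any metal, and 2, 2 and 1 had an unadjusted p under 0.05 in nickel, chromium and cadmium.

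ATF4 is a transcription factor of the integrated stress response. Kinases that sense amino acid shortage, heme shortage, double-stranded RNA or unfolded proteins in the endoplasmic reticulum phosphorylate the initiation factor eIF2, which slows protein synthesis while the ATF4 mRNA is translated more. ATF4 raises the transcription of genes for amino acid supply and of further factors, among them CHOP, which Ddit3 encodes and which takes part in cell death under lasting stress. Ppp1r15a and Trib3 act as brakes, the first by directing a phosphatase to eIF2 and the other by binding ATF4 and CHOP. Since ATF4 is controlled to a large part at translation, its mRNA level and its activity can differ.

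Array medians ran from 5.93 to 5.99, and the squared correlation between arrays of a condition was 0.954 or more. In replicate 4 the 2 control arrays differed in these genes. Control 2 minus Control 1 ran from -0.13 to 1.26 there over the 10 probe sets, against absolute differences of 0.00 to 0.29 in replicates 1 to 3. Hepatocyte markers were strongly expressed, with Alb at the 100th percentile of all probe sets, though 2 of the 9 hepatocyte markers on the array, Apoa1 and Apoh, lay under the median of all probe sets. Of 18 markers of macrophages, endothelium, stellate cells and bile duct cells, 17 lay under that median. Of the 7 hepatocyte markers tested, 0 rose and 4 fell in nickel 400 µM, 1 rose and 4 fell in chromium 10 µM and 1 rose and 5 fell in cadmium 1.2 µM, where 16.7%, 19.5% and 14% of all probe sets fell, and their mean log2 level ran from 8.63 to 9.83, from 9.38 to 9.44 and from 9.59 to 9.80, against 9.75 to 10.00 in controls. Their part in the changes below was not tested.

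Promoter windows of RefSeq, from 250 bases before to 50 bases after the start site in build GRCr8, were matched for 6 of the 8 genes. The 3 windows that hold a site letter pattern of the ATF or C/EBP-ATF kind are shown, because the changes of their genes under the metals are described in full further on. Capitals mark the match, and each window is read 5′ to 3′ on the strand of its gene, here the minus strand.
Ppp1r15a (chr1:105139547-105139846): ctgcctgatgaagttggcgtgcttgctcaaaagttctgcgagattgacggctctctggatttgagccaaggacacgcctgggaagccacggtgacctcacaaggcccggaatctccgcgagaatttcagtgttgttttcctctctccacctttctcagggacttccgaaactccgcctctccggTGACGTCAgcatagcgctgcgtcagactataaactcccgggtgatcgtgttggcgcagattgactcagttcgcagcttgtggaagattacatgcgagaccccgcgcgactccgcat
Trib3 (chr3:161275484-161275783): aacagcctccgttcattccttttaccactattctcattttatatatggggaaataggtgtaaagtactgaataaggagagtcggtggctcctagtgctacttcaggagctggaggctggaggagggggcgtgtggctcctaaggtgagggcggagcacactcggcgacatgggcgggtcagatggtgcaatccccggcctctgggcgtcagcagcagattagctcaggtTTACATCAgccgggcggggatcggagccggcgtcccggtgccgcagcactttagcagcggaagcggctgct
Nupr1 (chr1:190645852-190646151): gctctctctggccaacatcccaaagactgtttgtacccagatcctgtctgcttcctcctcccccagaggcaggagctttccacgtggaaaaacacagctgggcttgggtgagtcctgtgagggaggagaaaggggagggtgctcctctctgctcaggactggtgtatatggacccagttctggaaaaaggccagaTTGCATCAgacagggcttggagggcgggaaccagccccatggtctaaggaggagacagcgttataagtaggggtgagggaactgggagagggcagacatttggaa
The match in Ppp1r15a is the cAMP response element TGACGTCA, a palindrome, which begins 66 bases before the start site and occurs in 1.83% of the 33469 promoter windows. The matches in Trib3 and Nupr1 are the core of the C/EBP-ATF response element, TGATGNAA, here on the opposite strand. They begin 21 and 55 bases before the start site, and 3.98% of all windows hold this core on either strand. The windows of Atf4, Ddit3 and Asns hold neither pattern, which says only that these letters are not there. A match of letters is a description and not a measured binding site.

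Cadmium at 1.2 µM gave the highest count of these genes under the stricter rule for a call. Against controls, 5 of the 10 probe sets were higher at an adjusted p of at most 0.001 and at least 1.8-fold, where 1.11% of the 15521 probe sets tested were called higher by the same rule. They belong to Atf3, Ddit3, Ppp1r15a, Casp4 and Trib3. The study already reported Ddit3, Ppp1r15a and Casp4 as raised in cadmium on these same arrays. The members were chosen with earlier results of these data known, so the count is a description and not a test of the group. As the RNA came from whole flasks, a change in RNA per cell and a change in which cells were left cannot be told apart. In nickel 400 µM only Atf3 was called by that rule, where 1.46% of all probe sets were. In chromium 10 µM Atf3 was called higher, against 1.06% of all, and Nupr1 lower, against 1.65% of all, and Nupr1 was also the 1 member lower there at an adjusted p of 0.05, where 19.5% of all were. At an adjusted p of at most 0.05 the counts of higher probe sets were 8 of 10 in nickel 400 µM, 3 of 10 in chromium 10 µM and 7 of 10 in cadmium 1.2 µM, where 23.4%, 23% and 23.8% of all probe sets were called higher. The median change of the 10 probe sets was 0.67, -0.03 and 1.22 in these exposures, against 0.02, 0.01 and 0.04 over all probe sets tested. Without the replicate number as a term in the fit, 1, 2 and 7 of the 10 were called in either direction at 0.05, so that the nickel count depends on that term. By the stricter rule, the count in cadmium 1.2 µM was 3 without replicate 3 and that in chromium 10 µM was 1 without replicate 1 or 3. All 10 probe sets passed the filter on low values, which used the mean over all arrays and no condition.

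**Figure D1:**
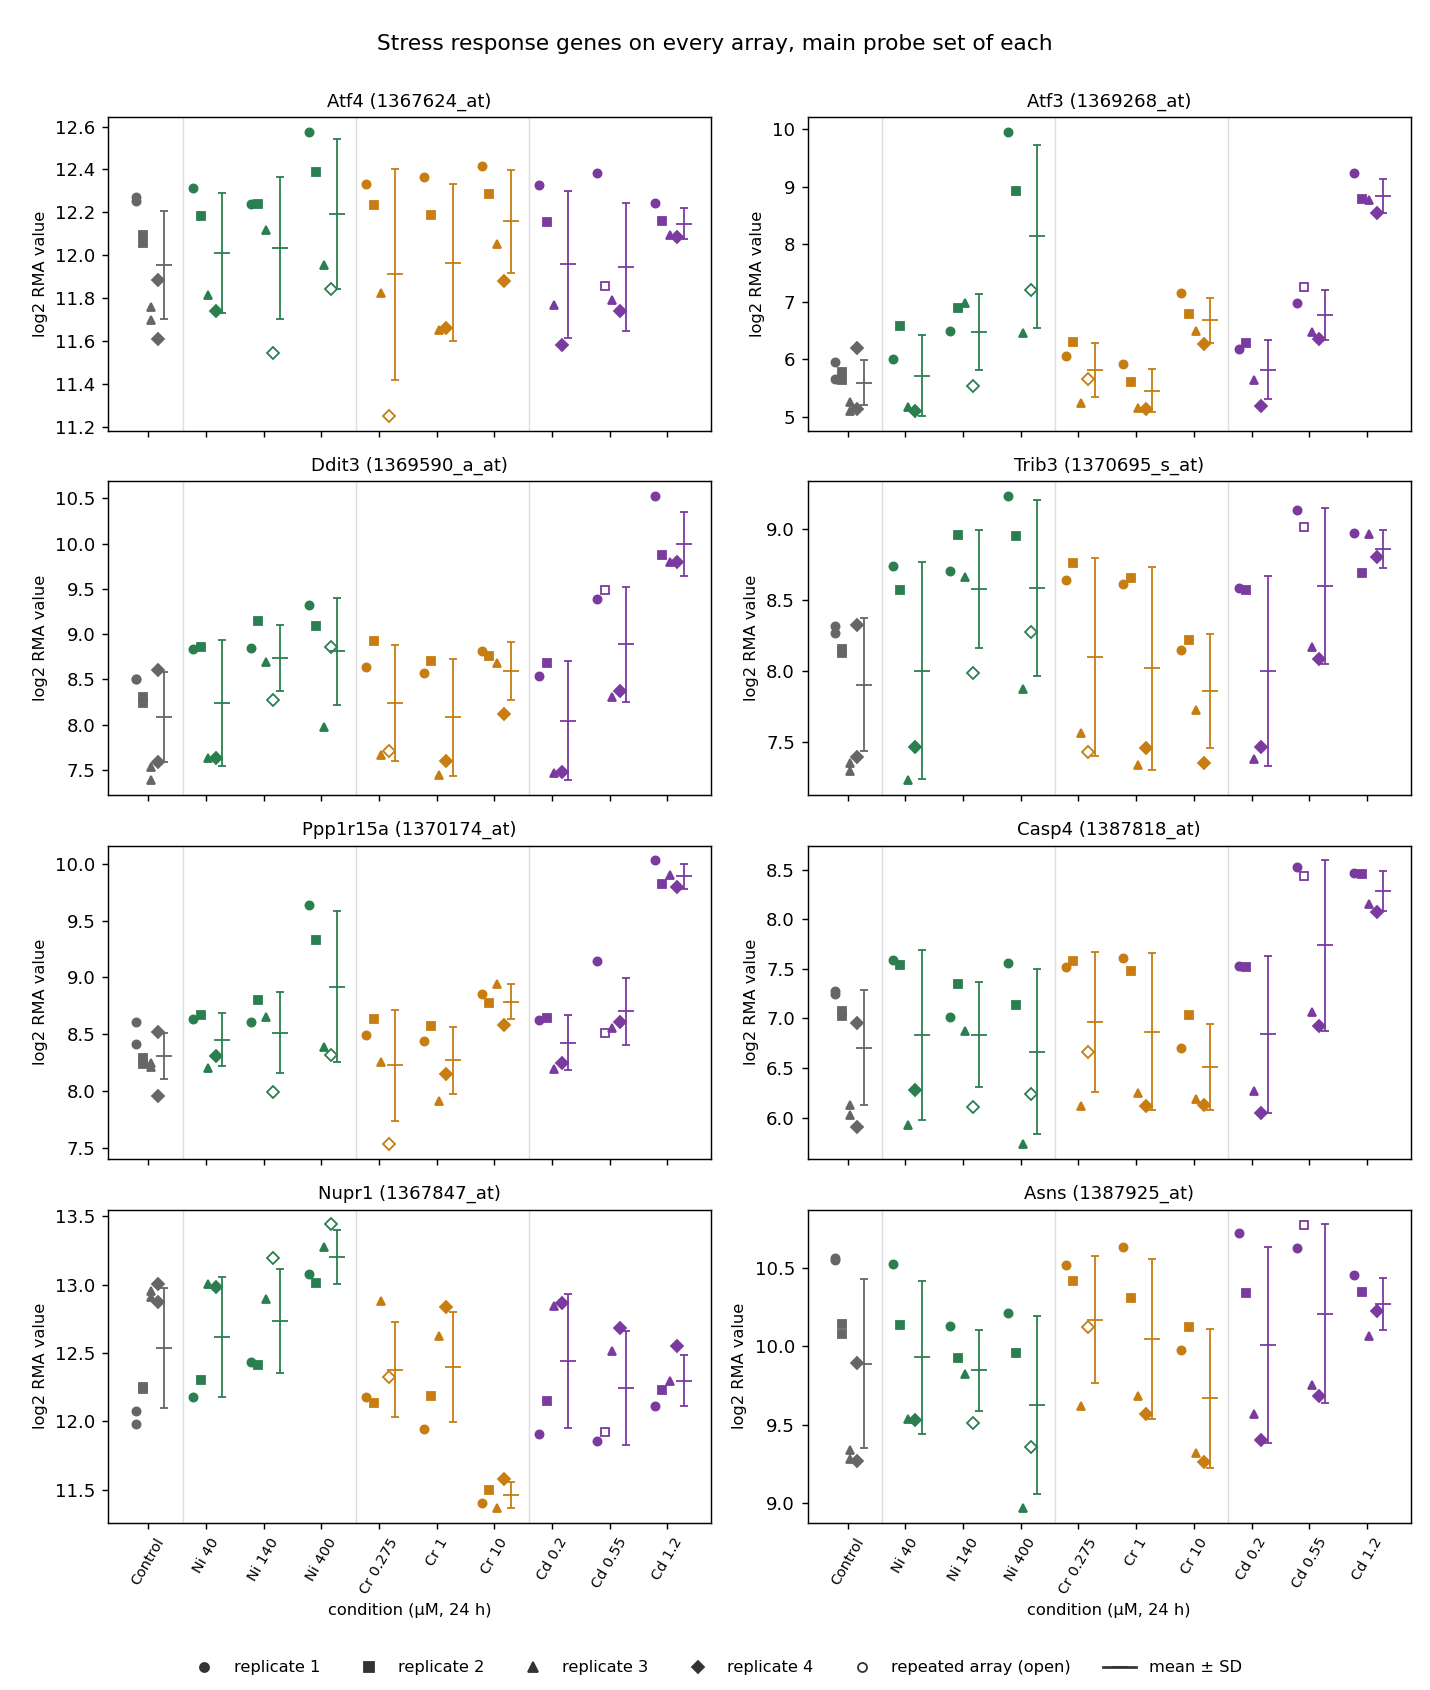
The log2 RMA value of the main probe set of each gene is plotted for every array by condition, with controls once at the left. Replicates are shown as symbols and repeated arrays as open symbols, with the mean ± SD beside them (n = 4 per exposure, 8 controls). Atf3, Ddit3, Ppp1r15a and Casp4 in cadmium 1.2 µM lie above every control array, Nupr1 in chromium 10 µM lies below every control array, and Atf4 overlaps its controls in every exposure.

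Among the transcription factors, the Atf4 transcript itself hardly moved. It read 12.24, 12.16, 12.10 and 12.09 in cadmium 1.2 µM, against a lowest of 11.61, a median of 11.97 and a highest of 12.27 over the control arrays, and all 4 cadmium arrays lay inside the control range. That range includes a difference between replicates, as controls were higher in replicates 1 and 2. Against controls of the same replicate, the cadmium changes were -0.02, 0.085, 0.37 and 0.34. They were 0.31, 0.31, 0.225 and 0.09 in nickel 400 µM and 0.155, 0.21, 0.32 and 0.13 in chromium 10 µM. In each of these, 2 arrays lay above every control. Its change was 0.19 ± 0.09 in cadmium 1.2 µM (SE, n = 4, adjusted p = 0.12), 0.20 ± 0.10 in chromium 10 µM (adjusted p = 0.12) and 0.24 ± 0.09 in nickel 400 µM (adjusted p = 0.041). The nickel value was past 0.05 narrowly, and without the filter on low values its adjusted p was 0.062, in a range of 0.013 to 0.55 over all alternatives (0.16 and 0.2 without replicates 1 and 2). The 95% interval of the cadmium change, -0.01 to 0.39, leaves room for a rise of up to that size. The arrays alike by both orders gave 0.18 in chromium 10 µM and 0.31 in nickel 400 µM (adjusted p = 0.088 and 0.013). In cadmium 1.2 µM, with 1 such array, the change was -0.02. Atf4 was among the strongly expressed of these genes on every array, with values from 11.25 to 12.58.

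Atf3, a factor of the same family that ATF4 induces, showed the largest change of the 8 genes in each metal at its highest concentration, in chromium beside a fall of like size in Nupr1. It read 9.24, 8.79, 8.78 and 8.54 in cadmium 1.2 µM, 9.96, 8.93, 6.45 and 7.21 in nickel 400 µM and 7.16, 6.79, 6.49 and 6.26 in chromium 10 µM, in the order of replicates 1 to 4. Controls ran from 5.10 to 6.20 with a median of 5.65. Every array of the 3 exposures lay above every control array, but the nickel arrays spread over 3.51 and the cadmium arrays over 0.70. The rise was 9.48-fold in cadmium 1.2 µM (log2 change 3.25 ± 0.15, adjusted p = 1.3e-08), 5.84-fold in nickel 400 µM (2.55 ± 0.46, adjusted p = 0.00077) and 2.12-fold in chromium 10 µM (1.08 ± 0.13, adjusted p = 2e-05). Over the arrays with the same condition by both orders the log2 changes were 3.49, 3.69 and 1.22.

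Ddit3, the CHOP gene, rose mainly in cadmium. Its values were 10.53, 9.88, 9.80 and 9.79 in cadmium 1.2 µM, against 7.39 to 8.60 in controls with a median of 8.27, so that the lowest cadmium array was above the highest control. The rise was 3.78-fold (1.92 ± 0.17, adjusted p = 3.1e-06). In nickel 400 µM the values were 9.32, 9.09, 7.97 and 8.86, of which 3 lay above every control, and the change was 0.73 ± 0.19 (adjusted p = 0.0085). In chromium 10 µM they were 8.81, 8.76, 8.68 and 8.12, with a change of 0.51 ± 0.18 (adjusted p = 0.036) that came largely from replicate 3, at 1.22, and was 0.03 in replicate 4. The value in replicate 4 rests on the mean of 2 control arrays that lay apart, at 7.59 and 8.60. The change over the arrays alike by both orders was 2.12 in cadmium 1.2 µM, 0.82 in nickel 400 µM and 0.40 in chromium 10 µM.

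Of the genes that act back on the response, Ppp1r15a, the regulatory subunit that takes the phosphate off eIF2, had the most even rise in cadmium. It read 10.04, 9.83, 9.90 and 9.79 in cadmium 1.2 µM, against 7.95 to 8.60 in controls with a median of 8.26. Its change in single replicates was between 1.53 and 1.68, and the rise was 2.99-fold (1.58 ± 0.09, adjusted p = 8e-08). In nickel 400 µM it read 9.64, 9.33, 8.39 and 8.32, of which only replicates 1 and 2 were above the controls, and the change was 0.61 ± 0.18 (adjusted p = 0.015). In chromium 10 µM the values 8.85, 8.77, 8.94 and 8.58 gave a change of 0.48 ± 0.15 (adjusted p = 0.021). With only the arrays alike by both orders, Ppp1r15a changed by 1.59 in cadmium, by 1.10 in nickel and by 0.43 in chromium. Ppp1r15a carries the cAMP response element printed above.

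Trib3, the pseudokinase that binds ATF4 and CHOP, was read by 3 probe sets that correlated with each other at 0.943 to 0.965 over the 36 exposed arrays. The probe set 1370694_at read 8.69, 8.63, 8.58 and 8.57 in cadmium 1.2 µM, a range of 0.12, against 6.48 to 8.02 in controls, a range of 1.55. The control arrays were high in replicates 1 and 2 and in Control 2 of replicate 4, and low elsewhere. The change in cadmium was therefore uneven, with 0.68, 0.92, 2.07 and 1.34 in replicates 1 to 4, while the exposed level was nearly the same in all. The log2 change of the 3 probe sets was 0.96, 1.18 and 1.25 in cadmium 1.2 µM (adjusted p = 0.0019, 0.0021 and 0.0008) and 0.68, 0.79 and 0.75 in nickel 400 µM (adjusted p = 0.013, 0.027 and 0.04). In chromium 10 µM it was -0.04, -0.01 and -0.10, with adjusted p of 0.79 or more. Only 1370694_at passed the stricter rule in cadmium, and the other 2 missed it by their p. The 3 probe sets changed, over the arrays alike by both orders, by 0.72, 0.59 and 0.82 in cadmium, each under 1.8-fold. Cadmium 1.2 µM had 1 array there. They changed by 0.88, 0.90 and 0.96 in nickel and by -0.03, -0.07 and -0.29 in chromium.

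Nupr1, a small nuclear protein induced by stress, was the one gene that passed an adjusted p of 0.05 in limma in opposite directions in different metals. It read 11.40, 11.49, 11.36 and 11.58 in chromium 10 µM, all below the lowest control array, against controls from 11.98 to 13.01 with a median of 12.56. The fall was 2.11-fold (log2 change -1.08 ± 0.15, adjusted p = 9.5e-05). In nickel 400 µM it read 13.08, 13.01, 13.28 and 13.45, all above the highest control, and the change was 0.67 ± 0.10 (adjusted p = 0.00021), which is under 1.8-fold. In cadmium 1.2 µM the values 12.11, 12.23, 12.29 and 12.55 lay inside the control range, with a change of -0.24 ± 0.11 (adjusted p = 0.092). The fall in chromium was 0.63 and 0.75 in size in replicates 1 and 2 and 1.57 and 1.36 in replicates 3 and 4, where the controls were higher. Over the arrays with the same condition by both orders, Nupr1 changed by 0.91 in nickel 400 µM (adjusted p = 0.00034) and by -0.69 in chromium 10 µM (adjusted p = 0.0013). In cadmium 1.2 µM, with 1 such array, it changed by 0.09. Nupr1 holds the C/EBP-ATF core printed above, as does Trib3, whose changes in chromium 10 µM were -0.10 to -0.01.

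Asns and Casp4 stand for the targets further down. Asns, which makes asparagine and is a textbook target of ATF4, read 10.45, 10.34, 10.06 and 10.23 in cadmium 1.2 µM, against 9.27 to 10.56 in controls with a median of 9.98. Its change was 0.38 ± 0.15 in cadmium 1.2 µM (adjusted p = 0.063), -0.27 ± 0.13 in nickel 400 µM (adjusted p = 0.11) and -0.22 ± 0.11 in chromium 10 µM (adjusted p = 0.13). In cadmium it was -0.11 and 0.23 in replicates 1 and 2 and 0.76 and 0.65 in replicates 3 and 4, and without replicate 1 the adjusted p was 0.028, in a range of 0.027 to 0.87 over all alternatives. Over the arrays alike by both orders the changes in nickel and chromium were -0.25 (adjusted p = 0.043) and -0.29 (adjusted p = 0.13). The change in cadmium turned to -0.09 over these arrays, with 1 of cadmium 1.2 µM. It turned to -0.17 with the labels as given (adjusted p = 0.87). Casp4, an inflammatory caspase, read 8.47, 8.45, 8.15 and 8.07 in cadmium 1.2 µM, against 5.91 to 7.28 in controls with a median of 6.99. Its rise was 2.99-fold (1.58 ± 0.19, adjusted p = 3.5e-05) in cadmium, with -0.04 ± 0.21 in nickel 400 µM (adjusted p = 0.9) and -0.19 ± 0.14 in chromium 10 µM (adjusted p = 0.31). Casp4 changed over the arrays alike by both orders by 1.26 in cadmium, 0.19 in nickel and -0.29 in chromium.

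**Figure D2:**
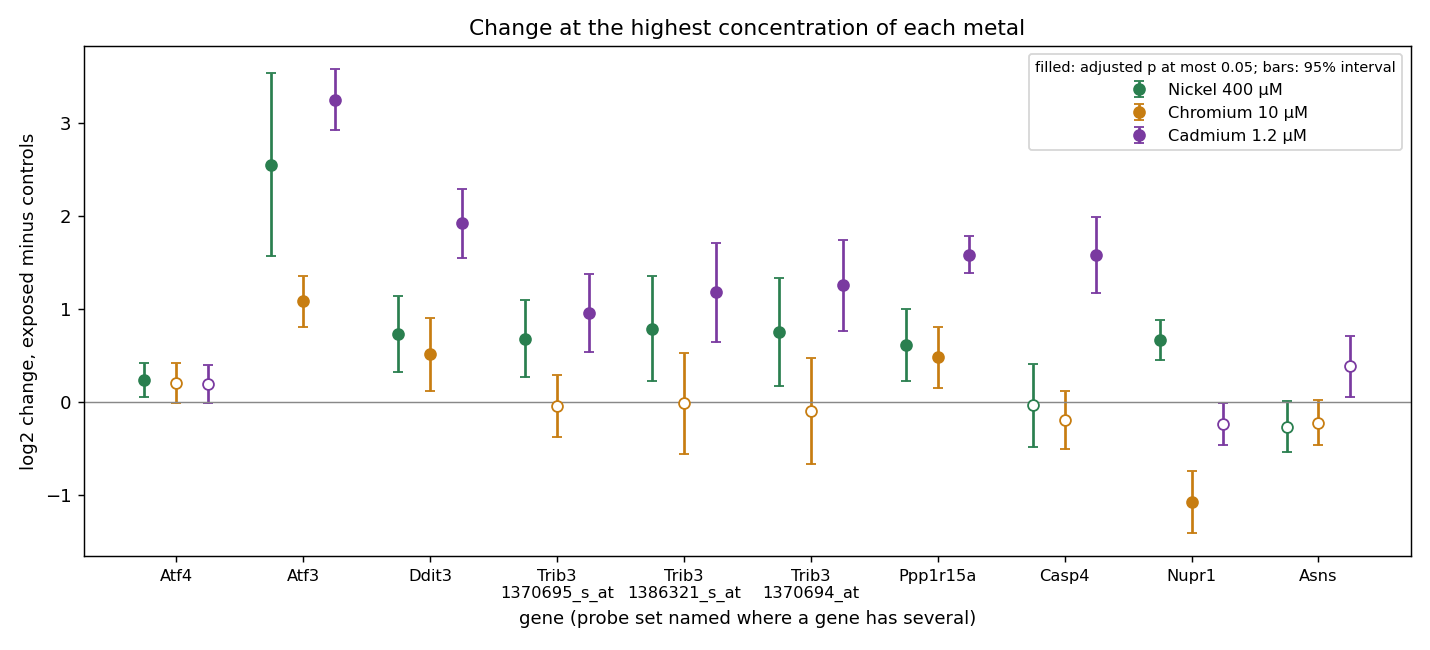
The log2 change against controls is plotted for each of the 10 probe sets at the highest concentration of nickel, chromium and cadmium, with its 95% interval. Filled points passed an adjusted p of 0.05, and the plot shows cadmium above nickel and chromium for Ddit3, Ppp1r15a and Casp4, overlapping intervals for Trib3 in cadmium and nickel, and Nupr1 up in nickel and down in chromium.

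At the middle and low concentrations, members passed the test in cadmium 0.55 µM alone. At 0.55 µM cadmium 6 of the 10 probe sets were higher at an adjusted p of at most 0.05, where 8.38% of all probe sets were. Casp4 read 8.53, 8.44, 7.07 and 6.92 there, with a change of 1.03 ± 0.19 (adjusted p = 0.0062). Atf3 read 6.99, 7.26, 6.48 and 6.35, all above every control, with a change of 1.18 ± 0.15 (adjusted p = 0.0012). Ddit3 changed by 0.81, Ppp1r15a by 0.40 and the 2 Trib3 probe sets that passed by 0.70 and 0.88. Casp4 had reached about the level of 1.2 µM in replicates 1 and 2 but not in replicates 3 and 4, where it was 8.15 and 8.07 at the higher concentration. Atf3 and Ppp1r15a, in contrast, took most of their rise between the 0.55 and 1.2 µM steps, with log2 changes of 1.18 and 3.25 and of 0.40 and 1.58. Without the replicate as a term, 1 of the 10 passed at 0.55 µM, as did 2 without replicate 1, 1 without replicate 3 and 2 with Control 2 arrays alone.

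At nickel 140 µM, 0 of the 10 probe sets passed an adjusted p of 0.05 in limma, where 2.53% of all were higher, and 4 had an unadjusted p under 0.05. With the spread of each probe set taken alone, 0 passed and 2 had an unadjusted p under 0.05. The largest change there was that of Atf3, at 0.88 ± 0.46 (adjusted p = 0.32), which read 6.49, 6.90, 6.98 and 5.53 in replicates 1 to 4. The array of replicate 4 was one of the repeated microarrays, and it was also the lowest of its condition for 9 of the 10 probe sets. At chromium 1 µM 0 of the 10 passed, where 0.0322% of all were higher, and at nickel 40 µM, chromium 0.275 µM and cadmium 0.2 µM also 0, where 0%, 0% and 0.161% of all were higher. At an unadjusted p under 0.05 there was 1 probe set, that of Asns in chromium 0.275 µM (log2 change 0.28), with limma and also with the spread of each probe set taken alone.

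In their change from the controls of the same replicate, Atf3 and Ppp1r15a spread further in nickel 400 µM than in cadmium 1.2 µM. By that measure Atf4, Ddit3, Trib3, Asns and Casp4 spread further in cadmium. The array values of all these genes, before controls were taken off, spread further in nickel. They ranged over 1.35 in nickel and 0.74 in cadmium for Ddit3, and over 1.83 and 0.40 for Casp4. In nickel 400 µM Atf3 changed by 4.16, 3.22, 1.27 and 1.54 in replicates 1 to 4, and Ppp1r15a by 1.13, 1.07, 0.16 and 0.08. In cadmium 1.2 µM the same genes changed by 3.44, 3.08, 3.59 and 2.87 and by 1.53, 1.57, 1.68 and 1.56. Ddit3 changed by 2.03, 1.61, 2.34 and 1.70 in cadmium 1.2 µM and by 0.82, 0.82, 0.51 and 0.77 in nickel 400 µM. Casp4 changed by 1.21, 1.40, 2.08 and 1.64 in cadmium 1.2 µM and by 0.30, 0.09, -0.34 and -0.19 in nickel 400 µM. Nupr1 was higher in replicates 1 and 2 of nickel, with 1.05, 0.77, 0.34 and 0.50. Replicates 1 and 2 of nickel are also those whose condition is the same by both orders, and replicate 4 is a repeated microarray. Without replicate 1 the count of called probe sets in nickel 400 µM at an adjusted p of 0.05 was 3 of 10, and without replicate 2 it was 2 of 10. It was also 2 of 10 when Control 2 arrays alone served as controls. The call of Atf3 in nickel by the stricter rule was lost without replicate 1, 2 or 4, without the repeated arrays, with Control 2 arrays alone, without the replicate as a term and with the spread of each probe set taken alone, with adjusted p of 0.002 to 0.017, and with the labels as given, at 0.29. The mean level of the hepatocyte markers also spread further in nickel 400 µM than in the other exposures, as given above.

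**Figure D3:**
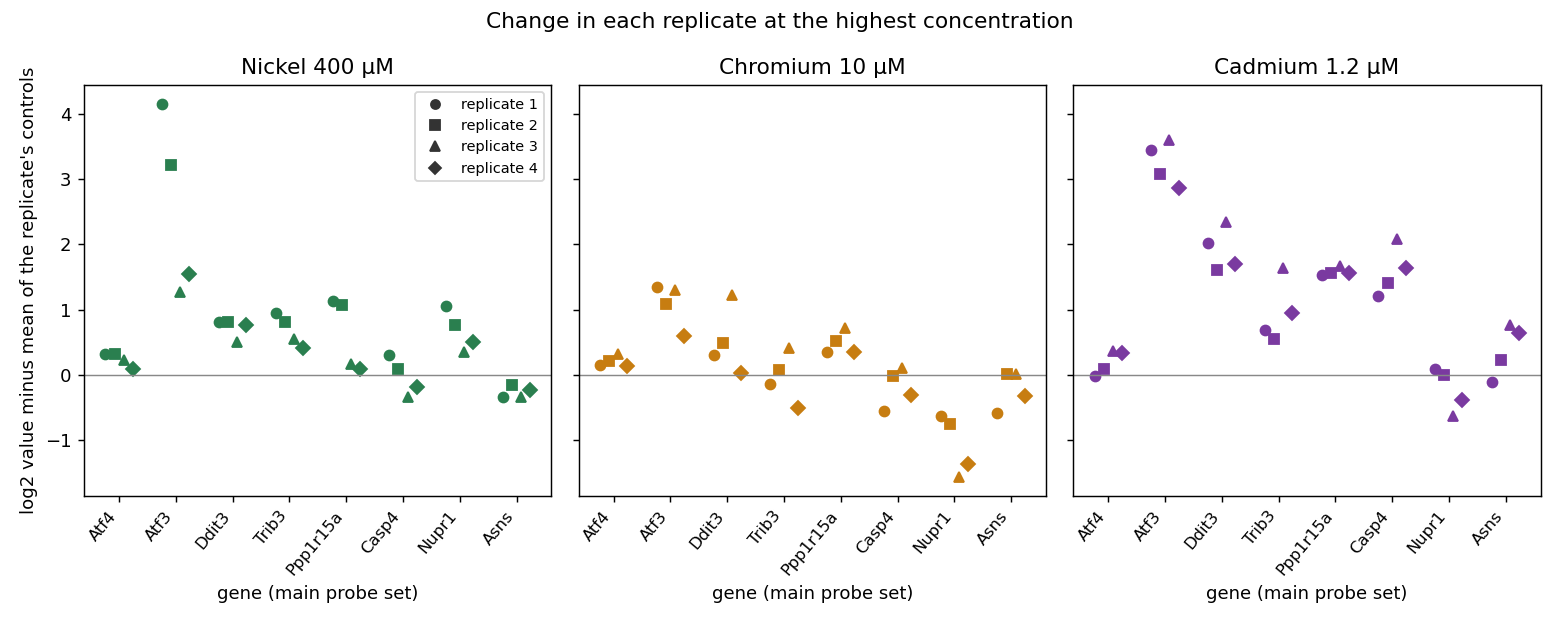
The log2 value minus the mean of the controls of the same replicate is plotted for the main probe set of each gene and each of 4 replicates at the highest concentrations. Nickel 400 µM shows Atf3 at 4.16 and 3.22 in replicates 1 and 2 and at 1.27 and 1.54 in replicates 3 and 4, whereas the 4 cadmium values of Atf3 lie between 2.87 and 3.59.

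The metals were then set against each other at their highest concentrations in 1 fit over all conditions, where the controls cancel. Cadmium minus nickel, 4 of the 10 probe sets were higher at an adjusted p of at most 0.05, where 24.8% of all were, and 1 was lower, where 20.3% of all were. Casp4 was 3.07-fold higher in cadmium (log2 difference 1.62 ± 0.20, adjusted p = 5.7e-08), Ddit3 2.28-fold (1.19 ± 0.19, adjusted p = 5.1e-06), Ppp1r15a 1.96-fold (0.97 ± 0.17, adjusted p = 1.7e-05) and Asns 1.57-fold (0.65 ± 0.14, adjusted p = 0.00028). Nupr1 was lower in cadmium than in nickel, by 0.90 ± 0.13 in size (adjusted p = 1.1e-06). Atf3 differed by 0.70 with a 95% interval of 0.03 to 1.37 (adjusted p = 0.082), and the Trib3 probe sets by 0.27 to 0.50 with adjusted p of 0.15 or more. Those intervals, which reach 1.07 for 1370694_at, do not show that nickel and cadmium act alike on Trib3. Among the arrays with the same condition by both orders, cadmium 1.2 µM has 1 array, so only the sizes are given. Atf3 then differed by -0.23 and Asns by 0.24, while the differences of Casp4, Ddit3, Ppp1r15a and Nupr1 kept their direction. Atf4 differed by -0.31 and Trib3 by -0.22 to -0.10.

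Cadmium minus chromium, 9 of the 10 probe sets were higher, where 24.3% of all were, and only Atf4 was not. The differences were largest for Atf3, at 2.16 ± 0.33 (adjusted p = 2.6e-06), and Casp4, at 1.77 ± 0.20 (adjusted p = 1.2e-08). They kept their direction over the arrays alike by both orders, where cadmium 1.2 µM has 1 array. The sizes were then 2.24 for Atf3, 1.595 for Casp4 and 0.28 for Asns, which was at 0.60 over all arrays. Nickel minus chromium, 5 were higher, where 23% of all were. These were Nupr1, 3.34-fold higher in nickel (1.74 ± 0.13, adjusted p = 1.7e-12), Atf3, at 1.46 ± 0.33 (adjusted p = 0.00044), and the 3 probe sets of Trib3, at 0.72 to 0.85 (adjusted p = 0.0029 to 0.017). Ddit3, Ppp1r15a and Casp4 differed between nickel and chromium by 0.22, 0.13 and 0.16, with 95% intervals of -0.17 to 0.60, -0.21 to 0.47 and -0.25 to 0.56. Over the arrays with the same condition by both orders these differences were 0.42, 0.67 and 0.48, and all 3 passed (adjusted p = 0.016, 0.00046 and 0.02). The arrays alike by both orders are replicates 1 and 2 of nickel and of chromium, so that this shift cannot be told apart from a difference between replicates. Atf4 differed between no pair of metals by more than 0.04 in size, with intervals inside -0.25 to 0.24. Pairs that share a metal share its arrays.

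**Figure D4:**
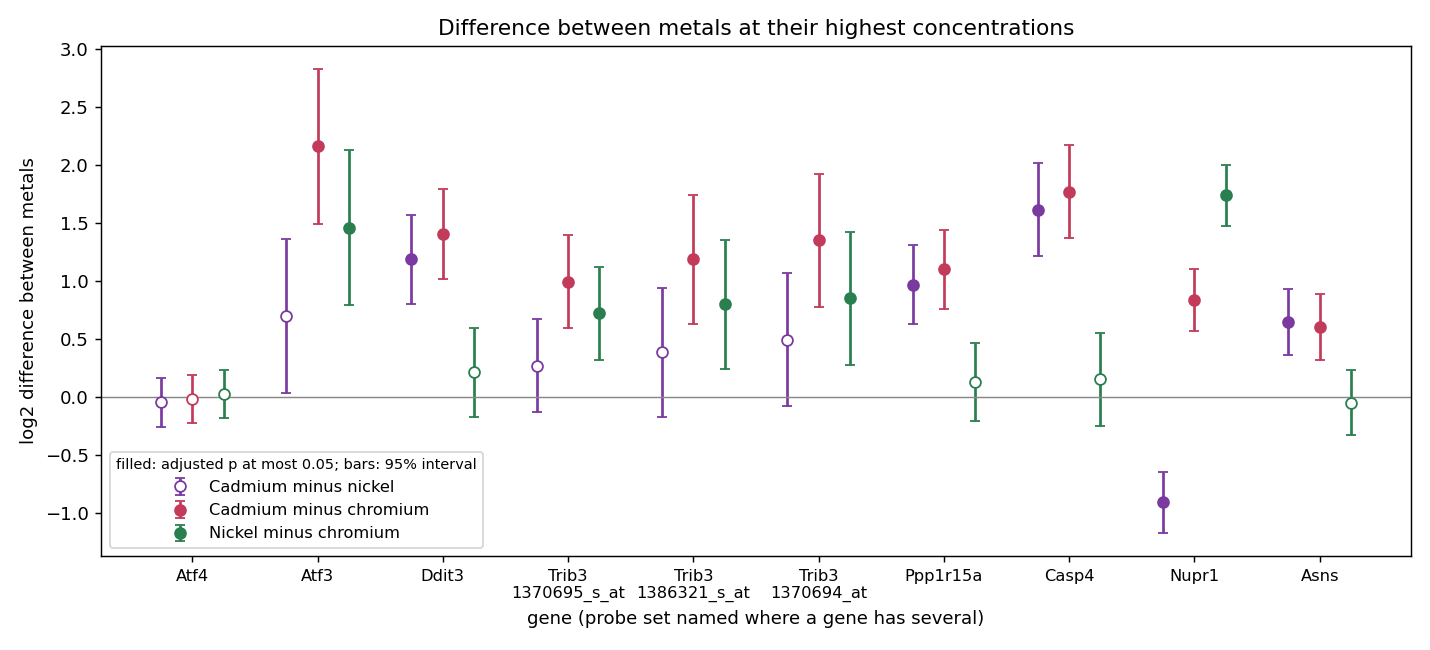
The log2 difference between metals at their highest concentrations is plotted for each of the 10 probe sets with its 95% interval, filled where the adjusted p was at most 0.05. Cadmium exceeds both other metals for Ddit3, Ppp1r15a, Casp4 and Asns, while Trib3 separates chromium from the other metals and Nupr1 puts all pairs apart.

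The wider pathway was described with lists of genes, counting those that rose or fell at an adjusted p of at most 0.05 with 1 probe set per gene. Chaperones of the endoplasmic reticulum, which the ATF6 and XBP1 branches of the unfolded protein response induce, rose for 11 and fell for 1 of 17 genes in cadmium 1.2 µM, with a median change of 0.28. In nickel 400 µM 6 rose and 2 fell, and in chromium 10 µM 0 rose and 9 fell, with medians of 0.18 and -0.29. In chromium 0 rose in limma also at an unadjusted p under 0.05, and 0 with the spread of each probe set taken alone. Over all probe sets, 23.8%, 23.4% and 23% rose and 14%, 16.7% and 19.5% fell in these exposures. Sdf2l1, a partner of the chaperone BiP, rose by 0.75 ± 0.07 in cadmium and by 0.52 ± 0.07 in nickel, with -0.01 in chromium. Dnajb9, a co-chaperone, rose by 0.64 ± 0.09 in cadmium and 0.80 ± 0.09 in nickel, with -0.03 in chromium. Hyou1, a large chaperone of the same compartment, rose by 0.55 ± 0.14 in cadmium and fell by 0.35 in chromium, with -0.02 in nickel. Manf, also on this list, rose by 0.36 ± 0.07 in cadmium and by 0.56 ± 0.06 in nickel, with -0.03 in chromium.

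Aminoacyl-tRNA synthetases, which load tRNAs and are a known ATF4 target set, passed the test mainly in cadmium. Together with the tRNA exporter Xpot, 7 of 13 rose and 0 fell in cadmium 1.2 µM, against 0 and 0 in nickel 400 µM and 1 and 2 in chromium 10 µM. Of all probe sets, 23.8%, 23.4% and 23% rose in cadmium, nickel and chromium. At an unadjusted p under 0.05 in limma, 0 rose and 1 fell in nickel, and with the spread of each probe set taken alone 4 rose in cadmium and 0 in nickel at an adjusted p of 0.05. Wars1 rose by 0.94 ± 0.14, Xpot by 0.53 ± 0.10, Mars1 by 0.43 ± 0.09 and Sars1 by 0.35 ± 0.12 in cadmium. The difference of these counts between metals was not tested. Genes of amino acid synthesis, the group Asns belongs to, had 1 rising and 3 falling of 12 in cadmium, 1 and 6 in nickel and 1 and 5 in chromium, where 14%, 16.7% and 19.5% of all probe sets fell. Cbs, which joins serine and homocysteine, fell by 0.36 in cadmium, 0.94 in nickel and 0.75 in chromium. Aldh1l2, a mitochondrial folate enzyme, fell by 0.45, 0.44 and 0.77. Mthfd1l, another mitochondrial folate enzyme, rose by 0.75 ± 0.12 in nickel, and Psph, which makes serine, fell by 0.54 ± 0.12 there.

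Amino acid transporters were mixed, with 3 rising and 1 falling of 9 in cadmium, 4 and 1 in nickel and 3 and 1 in chromium. Among all probe sets, 23.8%, 23.4% and 23% rose and 14%, 16.7% and 19.5% fell in these exposures. Slc7a11, the cystine importer, rose by 2.01 ± 0.37 in nickel 400 µM and by 1.16 ± 0.11 in chromium 10 µM, and had a value of 0.55 ± 0.22 in cadmium 1.2 µM (adjusted p = 0.057). Slc3a2, its heavy chain, rose by 0.90 ± 0.10 in cadmium and by 0.72 ± 0.07 in chromium, with 0.28 ± 0.12 in nickel (adjusted p = 0.081). Slc1a5, a glutamine carrier, rose by 0.58 ± 0.10 in cadmium and fell by 0.41 in nickel, and Slc7a5, a carrier of large neutral amino acids, rose by 0.35 ± 0.12 in cadmium.

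Effectors of growth arrest, redox folding and death were mixed, with 7 rising and 2 falling of 14 in cadmium, 6 and 1 in nickel and 4 and 2 in chromium. For these and the caspases below, 23.8%, 23.4% and 23% of all probe sets rose and 14%, 16.7% and 19.5% fell. Gadd45a, a growth arrest gene, rose by 2.46 ± 0.14 in cadmium 1.2 µM (adjusted p = 4.8e-08), against 0.57 ± 0.22 in nickel (adjusted p = 0.058) and -0.02 in chromium. Gdf15, a secreted stress cytokine, rose by 2.17 ± 0.29 in cadmium and 1.43 ± 0.31 in chromium, with -0.52 ± 0.41 in nickel (adjusted p = 0.33). Ero1a, an oxidase of the endoplasmic reticulum, rose by 2.21 ± 0.10 in nickel and fell by 0.49 in cadmium. The other of the 2 that fell in cadmium was Chac1, listed as a target of ATF4 and CHOP, by 0.88 ± 0.16 (adjusted p = 0.00069). Chac1 also fell by 0.59 ± 0.10 in chromium, with 0.25 in nickel (adjusted p = 0.31). Bcl2l11, the death gene BIM, rose by 1.74 ± 0.09 in nickel and 0.56 ± 0.08 in chromium, with -0.21 ± 0.08 in cadmium (adjusted p = 0.067). Of the other caspases tested, 0 of 5 passed in limma in cadmium 1.2 µM, where 3 had an unadjusted p under 0.05 and 1 passed with the spread of each probe set taken alone, and 1 rose and 2 fell in nickel and in chromium. Casp2 rose by 0.39 ± 0.13 in nickel and by 0.63 ± 0.07 in chromium, and Casp6 fell by 0.38 and 0.30 there. Casp8 fell by 0.49 in nickel.

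Upstream, 6 of 15 genes for eIF2 kinases, phosphatase subunits and initiation factors rose and 1 fell in cadmium, 6 and 1 in nickel and 8 and 0 in chromium. Beside this and the next list, 23.8%, 23.4% and 23% of all probe sets rose and 14%, 16.7% and 19.5% fell. Dnajc3, an inhibitor of eIF2 kinases, rose by 1.18 ± 0.13 in cadmium and 0.77 ± 0.11 in nickel, with 0.17 ± 0.12 in chromium (adjusted p = 0.29). The exchange factor subunits Eif2b2 and Eif2b3 rose by 0.63 and 0.52 in cadmium and by 0.40 and 0.36 in chromium, and in nickel Eif2b3 rose by 0.37 and Eif2b2 was at 0.19 (adjusted p = 0.086). Eif2b1 rose by 0.38 in cadmium and 0.34 in chromium, with -0.08 in nickel (adjusted p = 0.48). Of 14 other bZIP factors, which pair with ATF4 or CHOP on DNA, 4 rose and 2 fell in cadmium, 5 and 3 in nickel and 4 and 3 in chromium. Jun rose by 1.60 ± 0.17 in cadmium, 1.67 ± 0.22 in nickel and 0.77 ± 0.19 in chromium, and Maff by 1.00 ± 0.11, 1.69 ± 0.13 and 1.31 ± 0.12. Creb3l3, a liver factor, fell by 0.64 in nickel and 0.98 in chromium, with -0.28 in cadmium (adjusted p = 0.082). Atf5 fell by 0.58 ± 0.15 in nickel, with -0.50 ± 0.28 in cadmium (adjusted p = 0.18) and -0.45 ± 0.33 in chromium (adjusted p = 0.3).

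**Figure D5:**
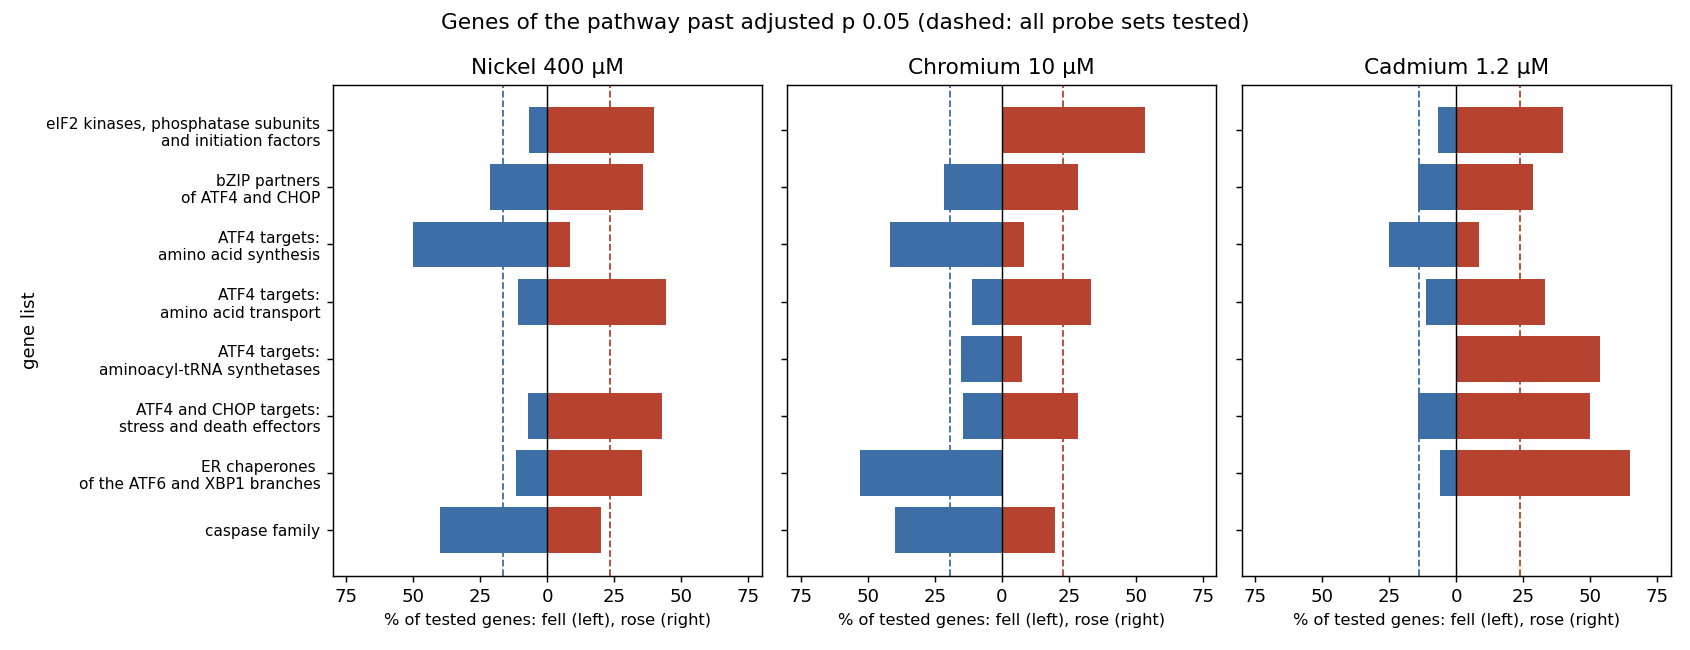
The share of the tested genes of each list that rose (right) or fell (left) at an adjusted p of at most 0.05 is plotted for the highest concentration of nickel, chromium and cadmium, with dashed lines for the share of all probe sets. Chaperones of the endoplasmic reticulum stand at 11 of 17 rising in cadmium and 9 of 17 falling in chromium, and synthetases at 7 of 13 rising in cadmium and 0 of 13 in nickel.

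Over the 36 exposed arrays, each minus the controls of its replicate, the members fell into those that varied together and those that did not. Atf3, Ddit3 and Ppp1r15a correlated with each other at 0.845 to 0.877, Trib3 with Ddit3 at 0.837 and Casp4 with Ddit3 at 0.783. Atf4 correlated with these 3 at 0.538 to 0.629 and Asns at 0.061 to 0.320, but Asns correlated with Casp4 at 0.694. Nupr1 correlated with every other member between -0.279 and 0.237. These are descriptions over arrays that share conditions and controls. The gene most like Atf3 was Anxa2, at 0.943, that most like Ddit3 was Gpr107, at 0.933, and that most like Ppp1r15a was Agfg1, at 0.944. For Casp4 it was Ghitm, at 0.947, followed by Gadd45a at 0.884, and for Asns the 3 nearest were Slc39a13, Casp12 and Psph, at 0.89, 0.885 and 0.866. For Trib3 they were Arhgef2, Selenos and Arfip1, at 0.842 to 0.848, for Nupr1 App, Snd1 and Syne2, at 0.88 to 0.884, and for Atf4 Ppp4r1, Eif1a and Cab39, at 0.859 to 0.889.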

How the data were processed

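Affymetrix Rat Genome arrays measured total RNA of H4-II-E-C3 cells on 36 arrays of exposed cells and 8 control arrays. Whether Control 1 and Control 2 of a replicate were separate flasks is not stated. The deposited values are log2 signals that the authors obtained with RMA in the Partek software, per the labels and methods. RMA quantile-normalizes all arrays together, so a value is relative to the other arrays and small changes can be compressed. Depth has no meaning for arrays, and the number of arrays limits the precision.

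Each metal was fitted with limma 3.58.1 in R 4.3.3 on the deposited values, with concentration and replicate number as terms, and the 2 control arrays of a replicate averaged. The methods fitted dose and a batch of experiment and processing dates. The sources used here do not tie that batch to the replicate number, and the averaging of controls was a choice made here. Metals were compared in 1 fit over all 10 conditions. Tested were the 15521 of 31042 probe sets (50%) with the higher mean over all arrays (5.96 or more). Adjusted p are Benjamini-Hochberg values over these probe sets, and calls used 0.001 with 1.8-fold, or 0.05. Conditions followed the moved titles described above, an order proposed with earlier results of these data in view and different from the labels for 22 arrays. Alternatives were the labels as given, the arrays alike by both, other filters, controls, spreads and terms, and left-out replicates. Samples of the same replicate number correlated in their deviations at 0.479 on average (-0.305 to 0.847) and those of other numbers at -0.157, and 36 of 40 were closest to their own number. The members, lists and tests were chosen with earlier results of these data known. The main probe set of a gene was that with the highest mean. Named were all members, up to 4 genes per list with the largest change among those passing 0.05 in cadmium 1.2 or nickel 400 µM, and the 3 genes most correlated with each member. Chac1 was named besides, because it fell in cadmium 1.2 µM. Of the probe sets, 20826 name 1 gene, 436 several and 9780 none. The fits were run on simulated data drawn without replicate effects, which cannot test the replicate term. Promoters come from RefSeq (GRCr8). The published condition averages were used only to check the order of conditions.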

Additional observations from a re-analysis of the deposited data

Results flagged for a closer look

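In 3 of the 100 groups of arrays examined, 1 array lay far from the others of its condition. Chance alone flags about 1 in 20 such groups. Ddit3 in cadmium 1.2 µM read 10.53 in replicate 1, against 9.79 to 9.88 in the other replicates, a gap of 0.887 of the range. Ppp1r15a in cadmium 0.55 µM read 9.14 in replicate 1, against 8.51 to 8.61, a gap of 0.849 of the range. The Trib3 probe set 1386321_s_at in nickel 140 µM read 7.09 in replicate 4, a repeated microarray, against 8.31 to 8.53, a gap of 0.846 of the range.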

How the results depend on the processing

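Counts at an adjusted p of 0.05 are over the 10 probe sets in either direction, and the stricter rule adds 0.001 and 1.8-fold. In cadmium 1.2 µM the count of 7 at 0.05 and the cadmium minus nickel and cadmium minus chromium counts of 5 and 9 stayed within 1.5 times in every alternative but the labels as given. The cause of the other shifts was not tested. With the labels as given, 0 probe sets passed in nickel 400 µM, chromium 10 µM, cadmium 0.55 µM and cadmium 1.2 µM by either rule, 0 of all probe sets passed the stricter rule in any metal, where 351, 421 and 237 had passed in nickel, chromium and cadmium, and the differences between metals were 1, 0 and 1 (cadmium minus nickel, cadmium minus chromium, nickel minus chromium). Cadmium minus chromium then turned to -0.43 for Atf3, -0.33 for Ddit3, -0.14 for Ppp1r15a, -0.40, -0.61 and -0.44 for Trib3, -0.33 for Asns and -0.35 for Casp4. Cadmium minus nickel turned to -0.08 for Ddit3, -0.43 for Ppp1r15a and -0.02 for Asns. Cadmium 1.2 µM against controls turned to -0.11, -0.26 and -0.36 for Trib3, -0.10 for Eif2b3, -0.21 for Slc1a5, -0.29 for Slc7a5, -0.05 for Xpot, -0.12 for Mars1, -0.06 for Sars1 and -0.05 for Hyou1, and Psph in chromium turned to 0.04. Over the arrays alike by both orders, the stricter rule gave 3 and 1 members and 921 and 265 of all probe sets in nickel and chromium. There 8 members differed for nickel minus chromium, and Psph in cadmium was -0.42. In that setting cadmium 1.2 µM had 1 array, which is assumed to vary like the other groups, and its count by the stricter rule is not given.

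Without the replicate block, 1, 2 and 1 members passed 0.05 in nickel 400 µM, chromium 10 µM and cadmium 0.55 µM, 0, 0 and 3 passed the stricter rule in nickel, chromium and cadmium, 229 of all probe sets did in nickel, and 2 members differed for nickel minus chromium. With Control 2 arrays alone, 2 passed 0.05 in nickel 400 µM and 2 in cadmium 0.55 µM, and 0 and 1 the stricter rule in nickel and chromium. With Control 1 arrays alone, with 8 separate controls or with all metals in 1 fit, 2 passed 0.05 in nickel 140 µM, and the fit over all metals left 1 by the stricter rule in chromium. With the spread of each probe set taken alone, 5 and 2 passed 0.05 and 0 and 1 the stricter rule in nickel 400 µM and chromium 10 µM, and 221 of all probe sets in nickel. Without the repeated arrays, 0 passed the stricter rule in nickel 400 µM and Hyou1 there was 0.19. Leaving out 1 replicate at a time gave 2 to 9 members at 0.05 in nickel 400 µM, 2 to 5 in chromium 10 µM (2 without replicate 1 or 3) and 1 to 4 in cadmium 0.55 µM, and by the stricter rule 0 to 1, 1 to 2 and 3 to 6 in nickel, chromium and cadmium. All probe sets called then ran from 157 to 348 in nickel (157 and 209 without replicates 2 and 1), 287 to 457 in chromium and 146 to 254 in cadmium (146 without replicate 3), and members differing for nickel minus chromium from 3 (without replicate 1) to 6. The arrays had 4 replicates an exposure, which limits the precision.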
